A study of Mus musculus with 4 samples.

Results

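Glycerolipid enzymes build, remodel and break down the phospholipids of membranes and the triacylglycerol of lipid droplets, and phospholipases release from them the lipids that act as signals. Rows of the expression files were taken by gene symbol, as the acyltransferases (Agpat, Gpat, Lpcat, Lpgat, Mboat), phosphatidate phosphatases (Lpin, Plpp), diacylglycerol kinases (Dgk), phospholipases A2 (Pla2g), C (Plcb, Plcd, Plcg) and D (Pld), and glycerophosphodiester phosphodiesterase domain proteins (Gdpd). The symbols matched 75 of 19645 features, and none of the 75 lay on the stretch of chromosome 6 that the choice of members set aside. Of these, 7 are *Gpatch* genes, which encode G-patch domain proteins and match by spelling alone. Another 1 is *Dgkeos*, a transcript antisense to *Dgke* whose deposited feature has the same coordinates as that of *Dgke*. The other 67 are lipid enzymes and related proteins, of which 46 had a mean of at least 0.5 FPKM and were tested. The files hold 0 rows under the symbol Plpp and name those phosphatases by the older Ppap2 symbols.

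The cells were undifferentiated mouse embryonic stem cells (ESCs), the cultured pluripotent cells of the early embryo, with 2 libraries of wild-type (WT) and 2 of *Bmal1* knockout (KO) ESCs. The KO ESCs carry a CRISPR-Cas9 frameshift deletion in *Bmal1* (*Arntl* in the files), whose product BMAL1 pairs with CLOCK as the activating transcription factor of the circadian clock. The KO line is 1 selected clone. The paper calls the libraries of each genotype biological duplicates, but the labels name no separate cultures. The p-values measure only the spread between these libraries. An effect of the genotype cannot be told apart from a trait of the clone. Values are FPKM, fragments scaled to the length of the transcript and to all mapped fragments of the library, which are scaled to length and so can be compared between genes.

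In the pathway to glycerolipids, glycerol-3-phosphate acyltransferases (GPATs) and lysophosphatidate acyltransferases (AGPATs) add fatty acids to the glycerol backbone to give phosphatidate. Lipins remove its phosphate to give diacylglycerol, and diacylglycerol kinases put the phosphate back. Phospholipases A2 cut a fatty acid, often arachidonate, from a finished phospholipid, and lysophospholipid acyltransferases replace it, while phospholipases C and D cut on either side of the head group's phosphate.

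*Pla2g1b*, *Pla2g4e* and *Agpat4* were the 3 enzymes that passed an adjusted p of 0.05 (limma, adjusted by Benjamini-Hochberg over the 12990 features tested) together with a change over 2-fold. *Pla2g1b* and *Pla2g4e*, both phospholipases A2, fell by 3.14-fold and 3.06-fold in KO ESCs, and *Agpat4* rose 2.04-fold. Among all tested features, 2.72% passed both thresholds as higher in KO and 1.42% as lower, against 2.17% (1 gene) and 4.35% (2 genes) of the 46 enzymes. With no minimum of fold, 1 enzyme rose and 7 fell, 2.17% and 15.2% of the enzymes, against 6.85% and 5.60% of all tested features. The 7 that fell were *Pla2g1b*, *Pla2g4e*, *Pla2g5*, *Pla2g12a*, *Mboat2*, *Lpcat1* and *Agpat2*, so 4 of them were phospholipases A2 and the other 3 were acyltransferases. The remaining 38 tested enzymes did not pass.

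**Figure D1:**
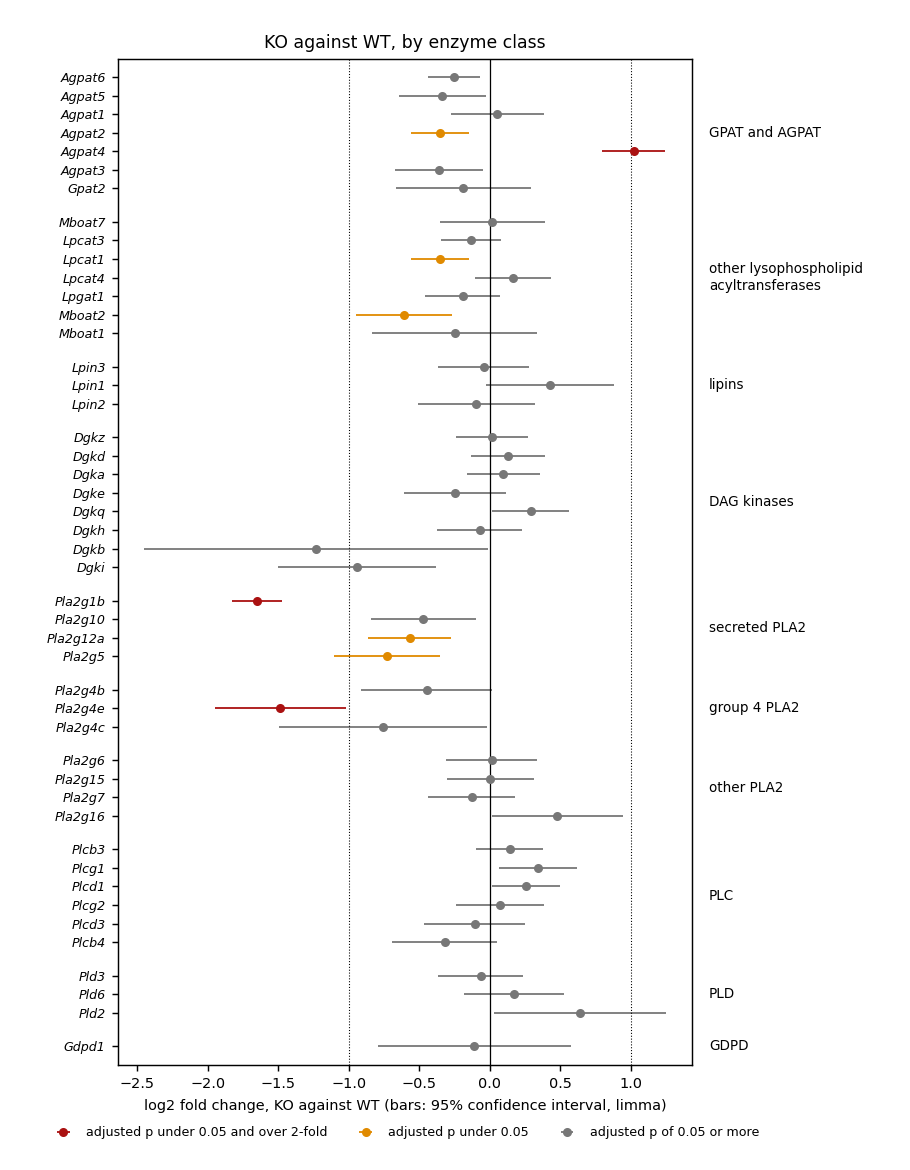
Log2 fold change of KO against WT for the 46 tested enzymes, ordered by class and, within a class, by mean level; bars are 95% confidence intervals from limma, dotted lines mark a 2-fold change and colours give the thresholds passed. *Pla2g1b* and *Pla2g4e* lie below the lower dotted line and *Agpat4* just above the upper one, and the tested secreted and group 4 phospholipases A2 all lie below 0.

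Over the 46 enzymes the median log2 fold change between KO and WT was -0.11, with a range from -1.65 to 1.02, beside a median of -0.02 over all tested features. Of the 46, 18 had a positive and 28 a negative log2 fold change, beside 6081 and 6909 of all 12990 tested features. Both KO libraries lay below both WT libraries for 20 enzymes (43.5%) and above them for 8 (17.4%), and the groups overlapped for 18. The same orders held for 31.7% and 27.0% of all tested features. The summed FPKM of all 67 enzymes was 508 and 482 in WT and 437 and 410 in KO, where replicate 1 stands before replicate 2 here and throughout. These are bulk libraries, in which fewer cells expressing a gene and less RNA per cell cannot be told apart.

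The regions just upstream of the RefSeq start sites of the 3 genes past both thresholds are shown. The reason is that BMAL1 with CLOCK binds E-boxes, of which CACGTG is the best known form and CANNTG the general one. Each line gives the 250 bases before the RefSeq start site (GRCm38.p6), 5′ to 3′ on the strand of the gene, with each CANNTG in capitals.
Pla2g1b: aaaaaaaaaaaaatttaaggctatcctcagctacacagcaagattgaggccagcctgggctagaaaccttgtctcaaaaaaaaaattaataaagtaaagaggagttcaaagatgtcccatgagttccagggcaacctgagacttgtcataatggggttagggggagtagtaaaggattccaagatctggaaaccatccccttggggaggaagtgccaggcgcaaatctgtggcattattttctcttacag
Pla2g4e: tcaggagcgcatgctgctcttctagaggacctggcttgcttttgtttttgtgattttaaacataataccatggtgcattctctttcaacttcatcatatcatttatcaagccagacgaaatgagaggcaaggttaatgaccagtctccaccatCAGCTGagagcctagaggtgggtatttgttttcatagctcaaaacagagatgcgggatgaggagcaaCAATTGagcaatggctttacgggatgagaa
Agpat4: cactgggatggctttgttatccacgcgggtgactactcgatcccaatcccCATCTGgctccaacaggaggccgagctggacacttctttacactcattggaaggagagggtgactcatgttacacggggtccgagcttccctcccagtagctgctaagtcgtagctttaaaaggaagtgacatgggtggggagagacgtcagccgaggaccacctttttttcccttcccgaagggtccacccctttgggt

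The window of *Pla2g1b* is chr5:115465892-115466141 on the plus strand and holds 0 CANNTG. That of *Pla2g4e* is chr2:120245336-120245585 on the minus strand and holds 2. That of *Agpat4* is chr17:12119034-12119283 on the plus strand and holds 1. The start sites of *Pla2g1b* and *Agpat4* lie 1019 and 535 bases inside the deposited features. Their windows thus lie within the features and may not be the promoters used. None of the 3 windows holds CACGTG on either strand. CANNTG occurs in 66.2% of the 32851 windows of all RefSeq genes, so its presence is common. CACGTG occurs in 6.02% of all windows and in 8 of the 81 windows (9.88%) of the 60 enzymes with a window, and belongs there to 7 genes, *Dgka*, *Dgkg*, *Dgkh*, *Lpin2*, *Pla2g2c*, *Plcg2* and *Pld6*. Of these 7, 5 were tested, with log2 fold changes from -0.09 to 0.17 and adjusted p-values of 0.476 or more. CACGTT, a weaker E-box form, occurs in 3.85% of all windows and in 2 of the 81. These are matches of letters in a short window and are no evidence of binding or of its absence.

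*Pla2g1b* encodes the secreted group 1B phospholipase A2, best known as a digestive enzyme of the pancreas. The gene (ENSMUSG00000029522.12) spans chr5:115465123-115474717 in the deposited features, and the RefSeq start site lies 1019 bases inside that span. Its level was 75.7 and 76.6 FPKM in WT and 24.5 and 24.0 in KO. The replicates of each genotype lay within a few percent of each other and far from those of the other genotype. The means were 76.2 ± 0.677 in WT and 24.2 ± 0.388 in KO (SD, n = 2), with a log2 fold change of -1.65 (SE 0.07, adjusted p = 0.00115). *Pla2g1b* had the highest FPKM of the 67 enzymes in each WT library. In KO, *Plcb3* was the highest and *Pla2g1b* came second.

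The other secreted phospholipases A2 are small calcium-dependent enzymes, each from its own gene. *Pla2g12a*, on chromosome 3, had 9.97 and 11.8 FPKM in WT and 7.58 and 7.01 in KO. *Pla2g5*, on chromosome 4, had 6.46 and 5.20 FPKM in WT and 3.23 and 3.71 in KO. Neither gene overlapped between the genotypes, although the WT replicates were further apart than the KO replicates in each. Their log2 fold changes were -0.57 (SE 0.12, adjusted p = 0.0356) for *Pla2g12a* and -0.73 (SE 0.15, adjusted p = 0.0352) for *Pla2g5*. The adjusted p of *Pla2g12a* was 0.0813 without WT replicate 2 and 0.0675 without KO replicate 2, and that of *Pla2g5* was 0.0562 without WT replicate 1 and 0.0585 without KO replicate 1. *Pla2g10*, an enzyme that acts well on phosphatidylcholine, had 14.2 and 12.3 FPKM in WT and 10.8 and 8.33 in KO and did not pass (log2 fold change -0.47, SE 0.15, adjusted p = 0.102).

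All 4 tested secreted phospholipases A2 thus had both KO libraries below both WT libraries, and 3 of the 4 passed the adjusted p, orders and calls that 31.7% and 5.60% of all tested features showed. Over all 10 secreted members the summed FPKM was 106.8 and 106.6 in WT and 46.6 and 43.6 in KO. Most of that sum was *Pla2g1b*, and without it the sums were 31.2 and 29.9 in WT and 22.1 and 19.6 in KO. The other 6 secreted members, *Pla2g2c*, *Pla2g2d*, *Pla2g2e*, *Pla2g2f*, *Pla2g3* and *Pla2g12b*, were below the minimum level. *Pla2g5* lies on chr4:138709837-138882814 with *Pla2g2c*, *Pla2g2d*, *Pla2g2e* and *Pla2g2f* and only 1 other feature, *Ubxn10*. *Pla2g5* was the single member of this phospholipase cluster to reach the minimum.

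**Figure D2:**
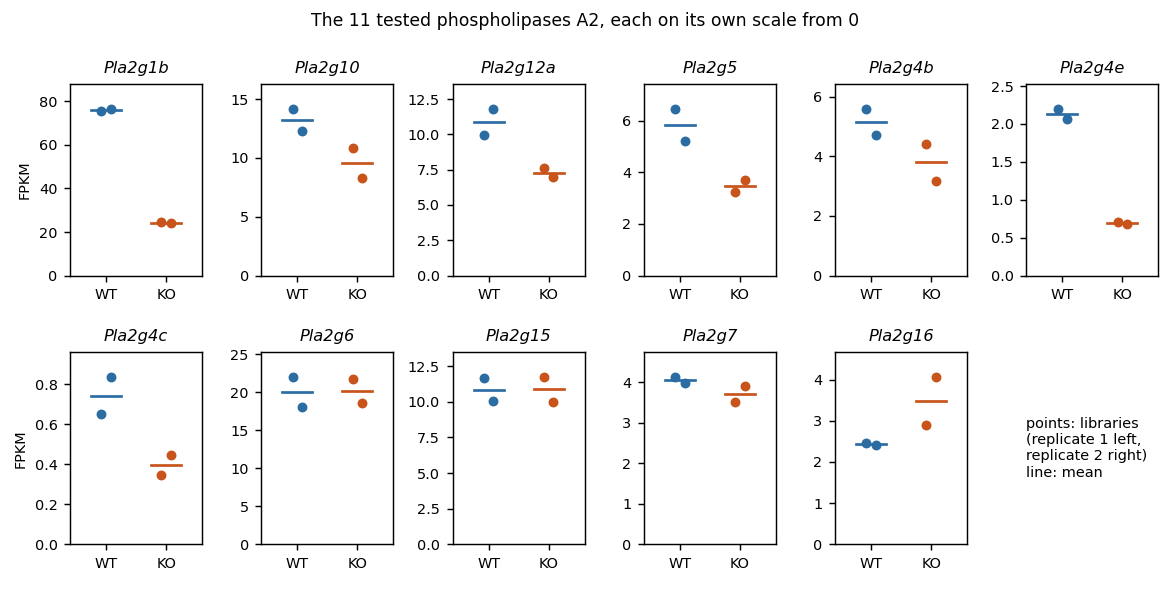
FPKM of the 11 tested phospholipases A2 in each library, on axes that start at 0; points are libraries with replicate 1 left and replicate 2 right, and lines are means of 2. KO points lie below WT points in the 4 secreted and 3 group 4 genes and, narrowly, in *Pla2g7*. *Pla2g6* and *Pla2g15* overlap, and in *Pla2g16* the KO points lie above.

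The group 4 enzymes are cytosolic phospholipases A2, of which *Pla2g4a* is the best known source of arachidonate and *Pla2g4e* makes N-acyl phosphatidylethanolamine, a precursor of the N-acylethanolamine signals. *Pla2g4e* (ENSMUSG00000050211.14, chr2:120166412-120245335, minus strand) had 2.2004 and 2.0636 FPKM in WT and 0.713 and 0.681 in KO. The genotypes were well apart and the replicates close, at a low level. The means were 2.13 ± 0.0967 in WT and 0.697 ± 0.0227 in KO (SD, n = 2), with a log2 fold change of -1.49 on the log2(FPKM + 0.1) scale (SE 0.19, adjusted p = 0.00951). At this level the size depends on the added constant: the log2 fold change was -0.88 with 1 added, under 2-fold.

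*Pla2g4b* had 5.60 and 4.73 FPKM in WT and 4.41 and 3.18 in KO (log2 fold change -0.45, SE 0.19, adjusted p = 0.179), in a feature merged with the neighbouring *Jmjd7*, so reads of the genes are not told apart. *Pla2g4c*, a calcium-independent member, had 0.652 and 0.835 FPKM in WT and 0.348 and 0.448 in KO (log2 fold change -0.76, SE 0.30, adjusted p = 0.160). In these genes both KO libraries lay below both WT libraries, but neither passed the test. *Pla2g4a* and *Pla2g4f* were below the minimum. *Pla2g4a* had 0.304 and 0.383 FPKM in WT and 0.0593 and 0.284 in KO, and *Pla2g4f* had 0.413 and 0.366 in WT and 0.0749 and 0.122 in KO. *Pla2g4b*, *Pla2g4e* and *Pla2g4f* lie side by side on chr2:120027483-120314165, with 1 other feature, *Ehd4*.

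The phospholipases A2 outside these groups gave a different picture. *Pla2g6*, a calcium-independent enzyme of membrane upkeep, had 21.95 and 18.05 FPKM in WT and 21.7 and 18.6 in KO. *Pla2g7*, the platelet-activating factor acetylhydrolase of plasma, had 4.12 and 3.97 FPKM in WT and 3.50 and 3.90 in KO. The genotypes overlapped for *Pla2g6*, whose replicates differed more than its means did, and for *Pla2g7* KO lay just below WT. *Pla2g16*, which acts on phospholipids of fat cells, had 2.46 and 2.41 FPKM in WT and 2.90 and 4.06 in KO, higher in both KO libraries but with KO replicates far apart. Log2 fold changes were 0.01 (SE 0.13, adjusted p = 0.956), -0.13 (SE 0.12, adjusted p = 0.544) and 0.48 (SE 0.19, adjusted p = 0.161). The median of the 4 tested genes in this class was 0.01, beside -0.65 over the 4 secreted enzymes. Over the 3 group 4 enzymes it was -0.76, which is the value of *Pla2g4c*. That gene had means of 0.743 FPKM in WT and 0.398 in KO. It thus reached the minimum only through WT, and the filter favoured a fall, so this median is weak. Differences between classes were not tested.

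The GPATs and AGPATs make phosphatidate, and 7 of the 8 were tested. *Agpat4* (ENSMUSG00000023827.8, chr17:12118749-12219640, plus strand), a lysophosphatidate acyltransferase found at mitochondria and prominent in brain, had 7.01 and 6.85 FPKM in WT and 14.4 and 13.9 in KO. The replicates of each genotype were close and the genotypes did not overlap. Its means were 6.93 ± 0.110 in WT and 14.1 ± 0.329 in KO (SD, n = 2), with a log2 fold change of 1.02 (SE 0.09, adjusted p = 0.00455). The fold lay at the threshold: the log2 fold change was 0.93 with 1 added in place of 0.1 and 0.996 without KO replicate 1, so the gene passed the adjusted p there but not 2-fold.

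*Agpat2*, on chromosome 2, is the isoform that adipose tissue needs to form, and its FPKM was 19.1 and 19.6 in WT and 15.6 and 14.8 in KO. All KO values lay below all WT values, with replicates close. The log2 fold change was -0.35 (SE 0.08, adjusted p = 0.0497), and the adjusted p was above 0.05 whichever of the 4 libraries was left out. *Agpat6*, now named *Gpat4* and a GPAT of the endoplasmic reticulum, was the highest of the class. It had 25.6 and 25.9 FPKM in WT and 21.5 and 21.6 in KO (log2 fold change -0.25, SE 0.08, adjusted p = 0.0866). *Agpat3* had 9.10 and 7.73 FPKM in WT and 6.92 and 6.13 in KO (log2 fold change -0.36, SE 0.13, adjusted p = 0.128). *Agpat6* and *Agpat3* did not overlap between the genotypes, and neither passed. *Agpat4* was thus the single class member to pass the adjusted p as higher and *Agpat2* the single one as lower. Of the 7 tested, 2 had a positive and 5 a negative log2 fold change, beside 6081 and 6909 of all 12990 tested features. KO lay above WT in 1, below in 4 and overlapped in 2 of the 7, beside 27.0% above and 31.7% below over all tested features.

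**Figure D3:**
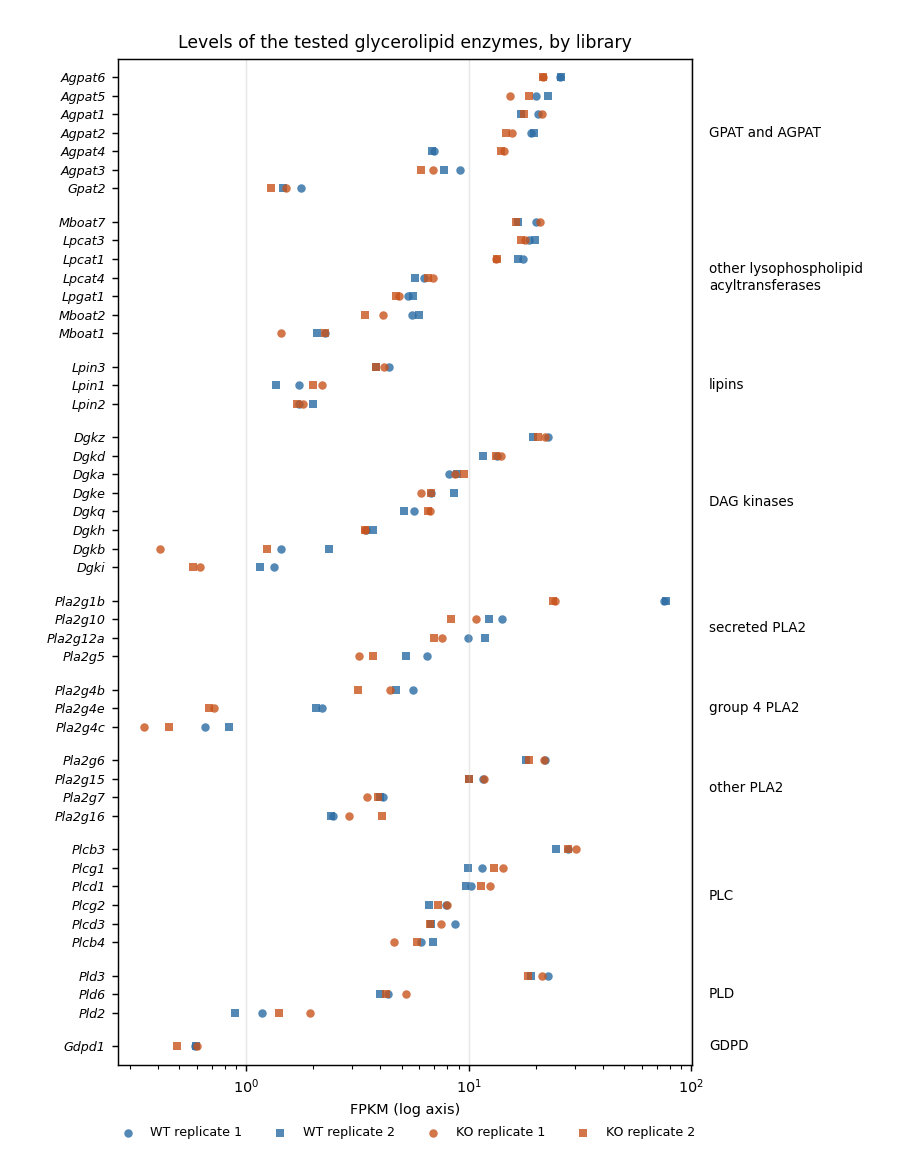
FPKM of the 46 tested enzymes in each of the 4 libraries on a log axis, in classes ordered by role; circles are replicate 1, squares replicate 2, blue WT and orange KO. The KO points of *Pla2g1b*, *Pla2g4e* and *Agpat4* stand clear of the WT points, whereas for most other enzymes the points of the genotypes lie close together.

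Members named Lpcat, Lpgat or Mboat were grouped by symbol as the other lysophospholipid acyltransferases. Such enzymes restore the fatty acid that phospholipases A2 remove, but the symbol does not show this role for each member. Of the 9, 7 were tested and 2 passed the adjusted p as lower, where 5.60% of all tested features did. *Mboat2*, an acyltransferase of lysophosphatidylethanolamine on chromosome 12, had 5.58 and 5.97 FPKM in WT and 4.13 and 3.41 in KO. *Lpcat1*, known for making the saturated phosphatidylcholine of lung surfactant and located on chromosome 13, had 17.4 and 16.7 FPKM in WT and 13.3 and 13.4 in KO. Neither gene overlapped between the genotypes. The log2 fold changes were -0.61 (SE 0.14, adjusted p = 0.0428) for *Mboat2* and -0.35 (SE 0.08, adjusted p = 0.0475) for *Lpcat1*. Without WT replicate 2 or KO replicate 2 the adjusted p of *Mboat2* was 0.0556 or 0.108, and that of *Lpcat1* was above 0.05 without any 1 of the 4 libraries.

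*Mboat7*, which puts arachidonate back into phosphatidylinositol, was the highest of these and had 19.97 and 16.61 FPKM in WT and 20.9 and 16.3 in KO. Its replicates differed more than its genotypes did (log2 fold change 0.02, SE 0.15, adjusted p = 0.946). *Lpcat4* had 6.29 and 5.74 FPKM in WT and 6.94 and 6.55 in KO, the largest positive log2 fold change of the class at 0.16 (SE 0.11, adjusted p = 0.366). The median of the 7 was -0.19, with 2 positive and 5 negative, beside 6081 and 6909 of all 12990 tested features.

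Lipins hydrolyse phosphatidate to diacylglycerol, and *Lpin1* also acts in the nucleus as a coactivator. All 3 were tested and none passed. *Lpin1* had 1.72 and 1.36 FPKM in WT and 2.19 and 2.00 in KO, higher in both KO libraries (log2 fold change 0.43, SE 0.18, adjusted p = 0.190). *Lpin3*, the highest, had 4.40 and 3.85 FPKM in WT and 4.15 and 3.84 in KO, and *Lpin2* had 1.73 and 2.00 in WT and 1.79 and 1.68 in KO. Both overlapped between the genotypes, with log2 fold changes of -0.04 and -0.09.

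Diacylglycerol kinases return diacylglycerol to phosphatidate and so end its signal to protein kinase C, and 8 of 10 were tested with none passing. *Dgkz*, the highest, had 22.7 and 19.5 FPKM in WT and 22.1 and 20.5 in KO (log2 fold change 0.02, SE 0.10, adjusted p = 0.929). *Dgkq* had 5.68 and 5.13 FPKM in WT and 6.72 and 6.53 in KO (log2 fold change 0.29, SE 0.11, adjusted p = 0.148). Its feature is 5.06 times as long as the annotated gene and 1 of 5 with the same coordinates, so its level is uncertain. *Dgkb*, an isoform of neurons, had the most negative log2 fold change of the class at -1.23 and an SE of 0.49 (adjusted p = 0.166). Its FPKM was 1.43 and 2.36 in WT and 0.408 and 1.24 in KO, so the replicates of each genotype were widely spread and WT replicate 1 lay close to KO replicate 2. Without WT replicate 1 the adjusted p was 0.00220 and without KO replicate 2 it was 0.00656, so the call for *Dgkb* differed between fits. *Dgki*, named after its values were seen, lay just outside the adjusted p (log2 fold change -0.94, SE 0.23, adjusted p = 0.0511), with 1.33 and 1.16 FPKM in WT and 0.622 and 0.578 in KO. The median over the 8 kinases was -0.03, with 4 positive and 4 negative.

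Phospholipases C of the beta, delta and gamma types cut phosphatidylinositol bisphosphate into inositol trisphosphate and diacylglycerol, downstream of G proteins, calcium and tyrosine kinases. Of 8 members, 6 were tested and none passed. *Plcb3* had 27.95 and 24.76 FPKM in WT and 30.3 and 27.8 in KO (log2 fold change 0.14, SE 0.10, adjusted p = 0.384). *Plcg1*, the isoform activated by growth factor receptors, had 11.5 and 9.97 FPKM in WT and 14.29 and 12.98 in KO, higher in both KO libraries without passing (log2 fold change 0.34, SE 0.11, adjusted p = 0.106). Its feature is 3.20 times as long as the annotated gene and shares its coordinates with another feature, so its level is uncertain. *Plcb4*, prominent in retina and cerebellum, had 6.12 and 6.92 FPKM in WT and 4.59 and 5.86 in KO (log2 fold change -0.32, SE 0.15, adjusted p = 0.223).

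Phospholipases D release the head group and leave phosphatidate. *Pld2* had 1.18 and 0.888 FPKM in WT and 1.93 and 1.40 in KO, with no overlap but widely spaced replicates (log2 fold change 0.64, SE 0.25, adjusted p = 0.154). *Pld3*, a lysosomal member that acts on nucleic acids, had 22.7 and 19.1 FPKM in WT and 21.4 and 18.5 in KO (log2 fold change -0.07, SE 0.12, adjusted p = 0.754). Of the 5 Gdpd members, whose products cut glycerophosphodiesters and lysophospholipids, *Gdpd1* alone was tested, with 0.588 and 0.597 FPKM in WT and 0.601 and 0.486 in KO. It shares its coordinates with 12 other features, so its level is uncertain.

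The 21 enzymes below the minimum had at most 0.556 FPKM in any library, and 8 of them were under 0.1 in all 4. The 8 members that are not lipid enzymes had log2 fold changes from -1.01 to 0.17 and none passed the adjusted p.

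The other genes of these pathways, listed by function, add the steps on either side. Of 38 tested features of glycerolipid synthesis and turnover outside the enzyme families above, 2 rose and 0 fell at the adjusted p, with a median log2 fold change of -0.08, and 6.85% and 5.60% of all tested features did so. *Cds2*, which turns phosphatidate into the CDP-diacylglycerol that leads to phosphatidylinositol, had 32.5 and 33.4 FPKM in WT and 55.0 and 52.4 in KO (log2 fold change 0.70, SE 0.07, adjusted p = 0.00611). *Etnk1*, ethanolamine kinase of phosphatidylethanolamine synthesis, had 30.1 and 32.4 FPKM in WT and 43.6 and 46.5 in KO (log2 fold change 0.53, SE 0.08, adjusted p = 0.0163), while a second feature of that symbol had at most 1.79 FPKM and did not pass. *Abhd6*, a monoacylglycerol lipase, had 3.97 and 3.71 FPKM in WT and 2.71 and 2.82 in KO and did not pass (log2 fold change -0.46, adjusted p = 0.0737).

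Of 21 features of other phospholipases C and their effectors, 9 were tested. All 9 had a positive log2 fold change, with a median of 0.31, beside 6081 of all 12990 tested features. Those below the minimum were mixed: *Plch2* lay lower and *Itpr2*, *Prkcb* and *Rasgrp1* higher in both KO libraries, and the others overlapped. Of the 9 tested, 1 passed (6.85% of all tested features passed as higher). It was *Rasgrp2*, which encodes an exchange factor that activates the small GTPase RAP1, with 8.89 and 8.30 FPKM in WT and 17.7 and 16.9 in KO (log2 fold change 1.00, SE 0.09, adjusted p = 0.00473). The inositol trisphosphate receptor genes *Itpr1* and *Itpr3* had log2 fold changes of 0.35 (SE 0.12, adjusted p = 0.121) and 0.33 (SE 0.12, adjusted p = 0.133).

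Among 13 tested genes that use arachidonate or lysophosphatidate, 1 rose and 2 fell at the adjusted p, beside 6.85% and 5.60% of all tested features. *Ptgs1*, the constitutive cyclooxygenase of prostaglandin synthesis, had 1.930 and 1.501 FPKM in WT and 0.618 and 0.616 in KO (log2 fold change -1.33, SE 0.22, adjusted p = 0.0198). *Lpar1*, a lysophosphatidate receptor, had 4.08 and 3.51 FPKM in WT and 1.85 and 2.43 in KO (log2 fold change -0.81, SE 0.18, adjusted p = 0.0429). *Alox5ap*, which presents arachidonate to 5-lipoxygenase, had 1.87 and 1.77 FPKM in WT and 2.95 and 3.14 in KO (log2 fold change 0.71, SE 0.14, adjusted p = 0.0317). The older-named lipid phosphatases differed in direction: *Ppap2b* rose (log2 fold change 0.68, SE 0.10, adjusted p = 0.0148), *Ppap2c* fell (log2 fold change -0.64, SE 0.12, adjusted p = 0.0248) and *Ppap2a* did not pass (log2 fold change -0.36, SE 0.09, adjusted p = 0.0526).

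**Figure D4:**
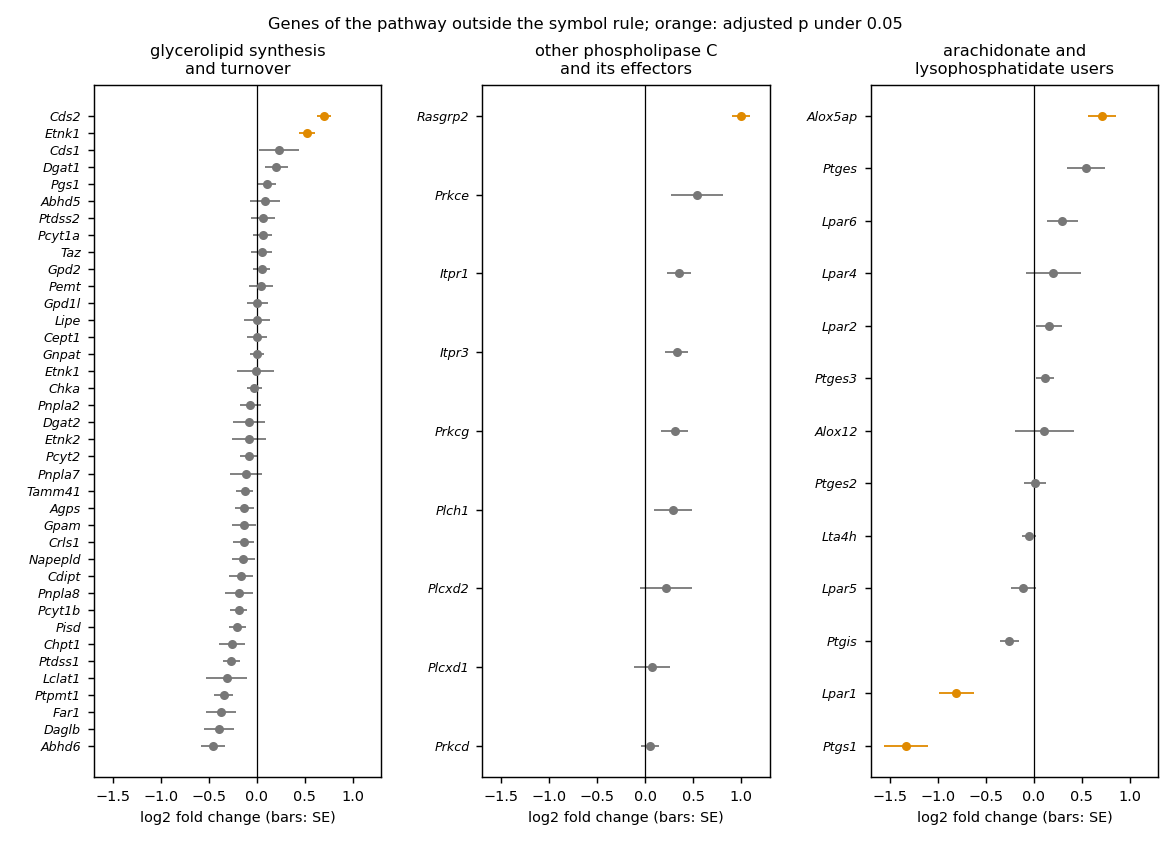
Log2 fold change of KO against WT (bars: SE) for tested genes of the 3 other pathway lists, ordered by fold change, with those at an adjusted p under 0.05 in orange. The 9 tested of 21 features of other phospholipases C and their effectors lie above 0, and *Rasgrp2* is the one past the threshold. *Ptgs1* and *Lpar1* lie lowest among the users of arachidonate and lysophosphatidate.

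The 8 genes at an adjusted p under 0.05 differed in how far their calls depended on settings. *Pla2g1b*, *Agpat4* and *Pla2g4e* stayed under 0.05 in all 13 alternative fits, with adjusted p-values of at most 0.0102, 0.0161 and 0.0298. The other 5 each rose above 0.05 in some fits, up to 0.178 for *Lpcat1*.

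**Figure D5:**
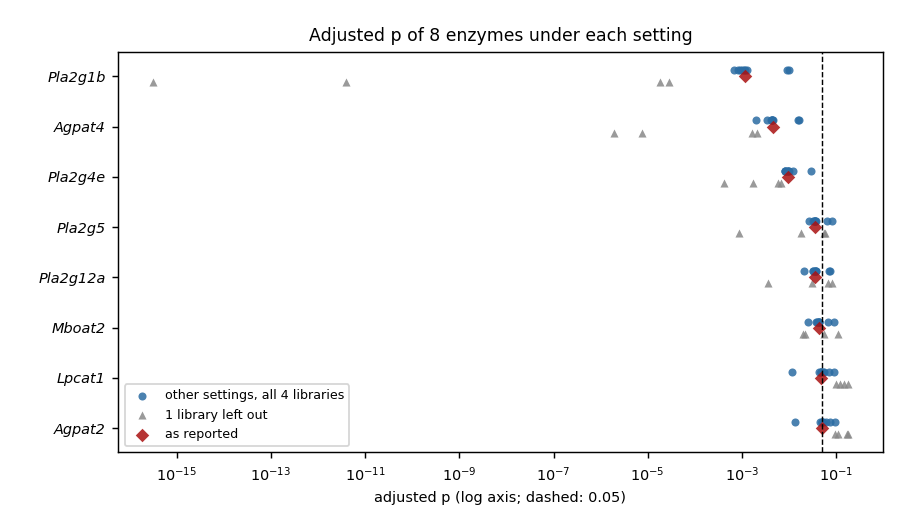
Adjusted p (log axis) of the 8 enzymes with an adjusted p under 0.05, as reported (diamonds), under 9 other settings with all 4 libraries (circles) and with 1 library left out (triangles); the dashed line is 0.05. *Pla2g1b*, *Agpat4* and *Pla2g4e* stay left of the line in every fit, and the other 5 cross it in at least 1.

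The cells carried the markers of undifferentiated ESCs in every library, with *Pou5f1* from 1389 to 1620 FPKM, and the adjusted p was under 0.05 for *Klf4* and *Tdgf1*, both lower in KO. Of 8 such markers these 2 passed, where 5.60% of all tested features passed as lower. *Sox2*, *Zfp42* and *Nanog* also lay lower in both KO libraries without passing. The main feature of *Esrrb* lay higher without passing, and *Pou5f1* and *Dppa5a* overlapped. Fibroblast or feeder markers summed to 2.23 and 1.91 FPKM in WT and 3.31 and 2.66 in KO, mostly *Thy1*, with *Col3a1* and *Dcn* at 0 in 3 of the 4 libraries each. Primitive endoderm markers summed to 1.13 and 1.21 FPKM in WT and 1.88 and 1.63 in KO. Both sums lay higher in both KO libraries, at low levels, and of the 6 markers with a row in each list 1 reached the minimum and it did not pass. Trophoblast markers summed to between 0.826 and 1.26 FPKM, and the 1 tested did not pass. Mesoderm markers summed to 2.53 and 2.56 FPKM in WT and 1.25 and 1.49 in KO. The WT sums were mostly *Eomes*, which fell. *Mesp1* and *T* lay higher in both KO libraries and *Mixl1* overlapped, each below the minimum. Neural markers summed to 133 and 127 FPKM in WT and 93.0 and 85.4 in KO, mostly *Tubb3*, which fell, while *Sox1* and *Pax6* rose. *Nes* lay higher in both KO libraries but did not pass (adjusted p = 0.0541). Features without a gene symbol took 26.8% and 37.3% of the summed FPKM in WT and 19.0% and 18.1% in KO. The calls of *Pla2g1b*, *Pla2g4e* and *Agpat4* held under both other scalings of the libraries. *Agpat2* did not pass after quantile normalization (adjusted p = 0.0620) or median-of-ratios scaling (adjusted p = 0.0521). The part of the marker shifts in the enzyme differences was not tested. *Arntl* itself had 6.05 and 6.29 FPKM in WT and 5.95 and 5.92 in KO (log2 fold change -0.06, adjusted p = 0.750), so its level does not check the labels.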

How the data were processed

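RNA of 2 WT and 2 *Bmal1* KO mouse ESC libraries was measured by RNA-seq after depletion of ribosomal RNA. Per the paper, TopHat 2.1.1 with Bowtie2 2.3.0 placed the reads on GRCm38, and the authors deposited FPKM per feature from Cufflinks 2.2.1. Read numbers cannot be recovered from FPKM, so the depth is unknown and precision is judged from replicates alone. Cufflinks divides reads among overlapping features. Of the 46 tested enzymes, 10 share their coordinates with another feature (*Agpat1*, *Dgka*, *Dgkd*, *Dgke*, *Dgkq*, *Gdpd1*, *Lpcat3*, *Pla2g7*, *Plcb4* and *Plcg1*). A feature over 1.5 times as long as the annotated gene was found for 7 (*Dgka*, *Dgkd*, *Dgkq*, *Gdpd1*, *Pla2g10*, *Pla2g4b* and *Plcg1*). Both can move the levels of these genes.

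Members were matched to GENCODE M21 by symbol and chromosome (67 of 67, 2 of them by a synonym). The members and lists were chosen with earlier results of these data known. *Dgkeos* and the *Gpatch* genes were kept out of the enzyme classes. Log2(FPKM + 0.1) was compared for 12990 features (mean FPKM over libraries 0.5 or more) in limma 3.58.1 (R 4.3.3), with a trended variance prior and p-values adjusted by Benjamini-Hochberg over these features. Every adjusted p is from that test, and log2 fold changes understate the change of low genes. Class medians are descriptions with no test, since a permutation of 2 against 2 libraries cannot give a two-sided p under 0.333. Both genotypes were grouped by their labels.

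Genes named are the members with an adjusted p under 0.05 and, in each class, the highest level, the largest rise and the largest fall. From each pathway list come those past both thresholds, filled up to 3 by adjusted p. *Dgki*, *Pla2g4c*, *Pla2g10*, *Pla2g4a*, *Pla2g4f*, *Pla2g15* and the Ppap2 genes were added after their values were seen. The limma script was tested on simulated data. Alternatives were 2 other pseudocounts, 2 other filters, 2 other scalings, the replicate block, no variance trend, FPKM summed by symbol, and leaving out each library in turn. Start coordinates were raised by 1 to count from 1. Python 3.11.15, pandas 2.3.3 and matplotlib 3.10.9 were used for the other steps.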

Additional observations from a re-analysis of the deposited data

How the results depend on the processing

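*Pla2g1b* and *Pla2g4e* lower in KO and *Agpat4* higher kept an adjusted p under 0.05 in all alternatives. With 1 as pseudocount, enzymes past both thresholds fell from 1 to 0 (higher) and from 2 to 1 (lower), and features from 353 to 146 and from 185 to 85. Leaving out 1 library gave 0 to 1 enzymes higher (0 without KO replicate 1) and 2 to 3 lower, and 257 to 323 features lower. At the adjusted p alone, 1 enzyme was higher and 7 lower. The lower ones numbered 6 after quantile normalization and 5 after median-of-ratios scaling. Without a filter, 2 were lower (571 features higher, 380 lower), and without a variance trend 3 (457 features lower). Leaving out 1 library gave 1 to 2 higher (2 without KO replicate 1) and 4 to 6 lower (4 without WT replicate 2 or KO replicate 2).

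Replicate numbers are shared by the genotypes, but no source says that they pair the libraries. Across 12990 features the deviations of equal numbers correlated at a Pearson r of 0.071 and a Spearman rho of 0.387, and across the 46 tested enzymes at a Pearson r of 0.665. With the replicate number as a block, 3 enzymes were higher and 14 lower (1807 and 2245 features), and *Dgkb* passed (adjusted p = 0.0271). In that fit 6 genes of glycerolipid synthesis and turnover were lower, and 3 of other phospholipases C and their effectors were higher.

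Without a filter the median log2 fold change was 0.057 for diacylglycerol kinases, -0.26 for secreted and -0.84 for group 4 phospholipases A2, 0.44 for phospholipases D, 0.25 for Gdpd proteins and 0.0025 for all enzymes; the enzymes below the minimum then enter the medians. For group 4 it was -0.37 and -0.88 with 1 and 0.01 as pseudocount, -0.97 with a minimum of 1 FPKM, -0.82 after quantile normalization, and -1.05 to -0.68 without 1 library. Without 1 library it was -0.11 to 0.13 for the other phospholipases A2 and -0.15 to -0.062 for all enzymes. Sign changes without 1 library are listed only for the enzymes named by adjusted p, level, rise or fall. They were *Dgkz* (-0.090 to 0.12), *Gdpd1* (-0.24 to 0.017), *Lpin2* (-0.20 to 0.0064), *Lpin3* (-0.14 to 0.051), *Mboat7* (-0.16 to 0.20), *Pla2g6* (-0.13 to 0.15) and *Pld3* (-0.19 to 0.059).

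In the pathway lists, genes of glycerolipid synthesis past the adjusted p numbered 1 higher without a variance trend and 0 to 1 lower without 1 library. Of arachidonate and lysophosphatidate users, 0 were higher without a filter and 0 to 1 without 1 library, and 1 was lower without a filter or a variance trend. The cause of these changes was not tested. Depth, and so counting error, is unknown.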
